A study of Mus musculus with 64 samples.

Results

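The 10 genes described here mark border-associated macrophages: Lyve1, Mrc1, Cd163, F13a1, Mgl2, Pf4, Cbr2, Stab1, Ms4a7 and Folr2. They were chosen by name, from the 45708 gene rows of the deposited count table, and all 10 were found there. Each was followed as CPM (a gene's counts scaled to a library total of 1000000) in microglia sorted from whole mouse brain. Border-associated macrophages line the meninges, the perivascular spaces and the choroid plexus. Like the microglia of the parenchyma they are macrophages that depend largely on signals through the receptor CSF1R. They carry CD11b and CD45, the antigens used for this sort, and the stated protocol names no further marker that would separate them from microglia. The markers were therefore taken as a measure of how much of their RNA came through the gate. Whether other sorted cells, microglia among them, also held RNA of these genes was not tested. In bulk RNA, fewer border macrophages and less of each transcript per cell cannot be told apart.

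The study compared mice with and without RISP, the Rieske iron-sulfur protein of respiratory complex III, which the gene Uqcrfs1 encodes. The 64 libraries fall into 12 groups. Adult naive mice were RISP WT (5 libraries), RISP Het (13) and RISP KO (13). Adult mice labelled PLX3397 Depletion were WT (4), Het (2) and KO (2), and those labelled PLX3397 Repopulation were WT (4), Het (4) and KO (4). PLX3397 is an inhibitor of CSF1R that removes most microglia while it is given, and microglia return once it is withdrawn. Cuprizone, a demyelinating diet, was given to adult Het (4) and KO (6) mice, and 3 further Het libraries came from old naive mice. A CreERT2 transcript, from a tamoxifen-inducible recombinase, was present in every group, with 877 to 989 CPM in naive WT libraries and 501 to 895 CPM in the naive KO libraries compared with them. The controls therefore carry the recombinase too, and the promoter that drives it, the doses, the days of treatment and whether libraries are separate animals are not given in the sources used here. If they are not, p-values cover the spread between these libraries only.

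Libraries held 2.7 to 24 M counts (M, 1000000), with a median of 11.9 M. They fell into batches that no label names. In 34 libraries the abundant non-coding transcripts Gm26917 and Yam1 took under 1% of counts, and these 34 hold every PLX3397 library, naive WT 1 to 5, naive KO 1 to 5 and naive Het 1 to 4. Naive Het 5 is rich in those transcripts and was kept for an alternative fit. The other 30 libraries were richer in those transcripts and divide by depth into 13 middle, 7 deep and 10 shallow libraries, the last all from cuprizone. Levels are compared only inside the 34 libraries or inside the 30. In the 34, Uqcrfs1 stood at 5.69 to 13.7 CPM in KO and at 36.9 to 65.3 CPM in WT libraries, so the target gene followed the labels. By Y-linked genes all 5 naive WT libraries were male, against 2 of 4 at depletion and 2 of 4 at repopulation. The protocol places untreated KO and WT mice on a NextSeq 500 and all other samples on a NextSeq2000, so in WT and KO the treatment and that instrument cannot be told apart. Naive Het libraries count among the other samples, so naive KO and naive Het libraries differ in instrument as well as in genotype.

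The 10 genes encode proteins of a scavenging, tissue-lining macrophage. Lyve1 encodes a hyaluronan receptor first known from lymphatic endothelium. Mrc1 (the mannose receptor CD206) and Mgl2 (a galactose-type lectin) are endocytic C-type lectins, Cd163 takes up haemoglobin bound to haptoglobin, and Stab1 clears oxidised lipoproteins and other ligands. Folr2 binds folate, Cbr2 is a carbonyl reductase, Pf4 is a chemokine also stored in platelets, F13a1 is the catalytic subunit of coagulation factor XIII, and Ms4a7 is a membrane-spanning protein of mature macrophages. The transcription factor PU.1, whose binding sites hold the core GAGGAA, is required in all macrophages, and the transcription factor MAF is tied to this tissue-resident programme.

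Because the genes moved together across the groups, the 250 bases before the start site of 4 of them are shown, from RefSeq with build GRCm38.p6. Capitals mark matches, on either strand, to the PU.1 core (GAGGAA, or TTCCTC when it lies on the opposite strand) or to the MAF core (TGCTGA, or TCAGCA). Mrc1, at chr2:14229164-14229413 on the plus strand, is shown for its 3 PU.1 matches, and Pf4, at chr5:90772185-90772434 on the plus strand, for a match that ends 3 bases before the start. Stab1, at chr14:31168642-31168891 on the minus strand, is the marker that changed least and holds both motifs. Cd163, at chr6:124304401-124304650 on the plus strand, fell 20.1-fold from naive to repopulation in WT and holds neither.
Mrc1: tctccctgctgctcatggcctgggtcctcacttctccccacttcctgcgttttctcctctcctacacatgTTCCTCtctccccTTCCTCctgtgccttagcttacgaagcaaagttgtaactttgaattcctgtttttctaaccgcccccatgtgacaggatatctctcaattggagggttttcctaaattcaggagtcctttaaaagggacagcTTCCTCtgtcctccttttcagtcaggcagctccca
Pf4: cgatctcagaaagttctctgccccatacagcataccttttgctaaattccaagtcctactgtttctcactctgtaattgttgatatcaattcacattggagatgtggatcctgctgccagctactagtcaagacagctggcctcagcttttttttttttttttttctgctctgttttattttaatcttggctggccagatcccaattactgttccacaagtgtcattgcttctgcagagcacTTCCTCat
Stab1: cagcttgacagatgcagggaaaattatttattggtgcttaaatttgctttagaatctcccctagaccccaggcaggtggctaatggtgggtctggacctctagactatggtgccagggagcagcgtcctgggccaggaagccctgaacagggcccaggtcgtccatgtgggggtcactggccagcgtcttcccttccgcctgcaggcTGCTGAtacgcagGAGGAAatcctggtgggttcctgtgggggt
Cd163: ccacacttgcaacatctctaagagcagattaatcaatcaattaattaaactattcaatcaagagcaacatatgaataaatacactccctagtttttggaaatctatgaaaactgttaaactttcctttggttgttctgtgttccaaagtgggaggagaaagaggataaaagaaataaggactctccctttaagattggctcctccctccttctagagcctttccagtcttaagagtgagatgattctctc
RefSeq gave 12 promoters for 9 of the 10 genes, Lyve1 being the one without an entry. The PU.1 core lay in 6 of the 12 (Mrc1, F13a1, Mgl2, Pf4, Cbr2 and Stab1), against 23.3% of 32851 mouse promoters of the same length. The MAF core lay in 3 of 12, from Stab1 and both Folr2 starts, against 16.1%, and the TATA box (TATAAA on either strand) in 0 of 12, against 12.4%. The PU.1 and MAF letters did not overlap each other in any of these promoters. Such matches describe letters only, not binding.

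In naive WT mice the markers spanned a wide range once divided by the summed length of their exons (GENCODE M21, GRCm38). Stab1 (chr14:31139013-31168641) stood highest at a median of 170 CPM per kilobase, followed by Mrc1 (chr2:14229392-14332057) at 67.5 and Pf4 (chr5:90772435-90773383) at 36.9. Next came Cbr2 (chr11:120729489-120732114) at 21.6 CPM per kilobase and F13a1 (chr13:36867178-37050244) at 17.5. Folr2 (chr7:101839988-101857194), Mgl2 (chr11:70130329-70137550), Lyve1 (chr7:110850607-110863239) and Cd163 (chr6:124304656-124330527) lay close together between 11.4 and 13. Ms4a7 (chr19:11321039-11336146) was lowest at 4.78 CPM per kilobase. Some rows can hold reads of another gene: Mgl2 shares a run of 183 bases with its neighbour Clec10a, so that 9.29% of possible 75-base Mgl2 reads could come from both, Mrc1 contains the microRNA gene Mir511 on its own strand, and Stab1, F13a1 and Folr2 overlap genes on the opposite strand. The library kit keeps strand, but whether the counting used it is not given in the sources used here.

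At depletion the border macrophage markers fell in every genotype, and Lyve1 had the lowest log2 fold change in all 3. Others lay close to it: Cd163 in Het mice (-4.28 ± 0.73 SE, Lyve1 -4.39 ± 0.8) and Mgl2 in KO mice (-3.22 ± 0.72, Lyve1 -3.41 ± 0.76). Differences between markers were not tested. In WT mice 10 of 10 fell, against 3.79% of the 15664 genes tested that were called lower (edgeR quasi-likelihood test, adjusted p under 0.05), and 0 rose, against 3.72%. Their log2 fold changes ran from -4.62 to -1.14 with a median of -2.47, a 5.56-fold fall, where the median of all genes was 0.01. Mean levels at depletion were 3.81% (Lyve1) to 42.8% (Stab1) of the naive mean.

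Lyve1 stood at 35.6, 55.5, 33.5, 25.2 and 30.6 CPM in the 5 naive WT libraries and at 2.34, 0.644, 1.17 and 1.34 CPM in the 4 depletion libraries. The groups were far apart, and the fall was 24.6-fold (log2 -4.62 ± 0.59 SE, adjusted p = 5.08e-06), on 6 to 23 counts per depletion library. Mrc1 stood at 383, 858, 435, 354 and 430 CPM in naive WT libraries and at 56.3, 68.3, 55.1 and 109 CPM at depletion. Naive library 2 was highest, every depletion library lay below every naive one, and Mrc1 fell 6.42-fold (log2 -2.68 ± 0.35, adjusted p = 7.09e-06). Mgl2 went from 21.1 to 62.2 CPM in naive WT libraries to 1.93, 1.29, 2.17 and 3.46 CPM at depletion, a 13.9-fold fall (adjusted p = 1.46e-05). Pf4 fell 8.79-fold, from 22.9 to 58.4 CPM in naive libraries to 1.59 to 5.47 CPM.

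The scavenger receptor genes Cd163 and Stab1 fell less than Lyve1, Mrc1, Mgl2 and Pf4 in WT mice. Cd163 stood at 57.5, 129, 62.0, 58.0 and 90.9 CPM in naive libraries and at 8.75, 16.5, 15.9 and 28.4 CPM at depletion, a log2 change of -2.11 ± 0.46 (adjusted p = 0.00397). Stab1 stood at 1751, 2179, 1766, 1481 and 1602 CPM in naive libraries and at 531, 964, 866 and 647 CPM at depletion. It fell 2.2-fold (log2 -1.14 ± 0.23, adjusted p = 0.00181), the smallest change of the 10, and its groups did not overlap either. Cbr2, F13a1, Folr2 and Ms4a7 fell 4.05-fold to 5.96-fold, a range that holds Cd163 at 4.3-fold. For all 10 genes every WT depletion library lay below every naive one, as for 8.05% of all genes tested. That held in Het mice as well (22.5% of all genes) and in KO mice for all but Cd163 (13.7%), where 17.4 CPM at depletion topped the lowest naive library at 17.1 CPM.

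In Het mice 9 of 10 fell at depletion, against 6.42% of all genes, and 0 rose, against 8.25%, with a median log2 change of -3.26. Mrc1 stood at 477, 324, 517 and 504 CPM in naive Het libraries and at 33.6 and 41.7 CPM at depletion (log2 -3.53 ± 0.51, adjusted p = 2.36e-05). Cd163 fell 19.4-fold, from 95.5, 69.9, 111 and 105 CPM to 4.66 and 4.65 CPM. Stab1 was the exception: its depletion libraries held 1267 and 626 CPM against 1362 to 1801 CPM in naive ones (log2 -0.64 ± 0.3, adjusted p = 0.159), and without the first of them it passed (log2 -1.27, adjusted p = 0.0251). This last fit, like every fit that leaves 1 library in a group, takes that library to vary like the other groups.

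In KO mice 7 of 10 fell at depletion, against 2.63% of all genes, and 0 rose, against 2.99%, with a median log2 change of -1.87. Lyve1 stood at 29.8, 11.9, 21.7, 8.95 and 26.1 CPM in naive KO libraries and at 2.58 and 0.853 CPM at depletion (log2 -3.41 ± 0.76, adjusted p = 0.00546). Mrc1 stood at 347, 177, 231, 111 and 352 CPM and then at 56.5 and 30.8 CPM (log2 -2.39 ± 0.47, adjusted p = 0.00176). Cd163 (-1.88 ± 0.61, adjusted p = 0.0705), Ms4a7 (-1.44 ± 0.5, adjusted p = 0.0906) and Folr2 (-1.48 ± 0.48, adjusted p = 0.0671) did not pass. The 2 KO depletion libraries differ, the second being lower for all 10 genes. Without that second library none of the 10 passed, with it alone 5 did, and without naive KO 4 all 10 did. A fit of only the 7 KO libraries compared called 0.

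**Figure D1:**
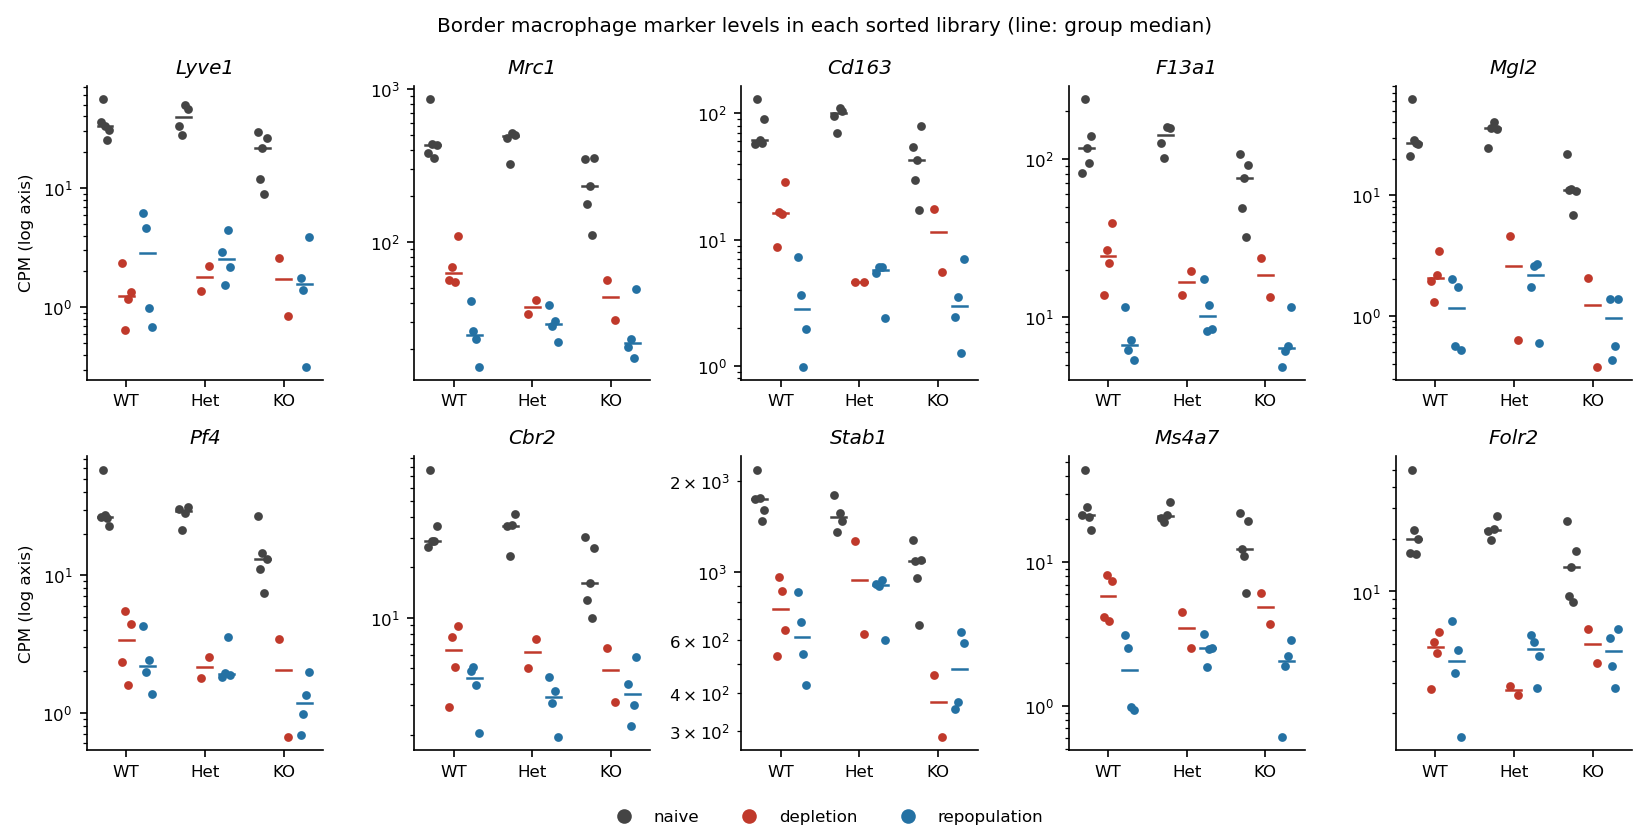
CPM of each border macrophage marker (log axis) in each of 34 libraries, by genotype (WT, Het, KO) and treatment (naive, depletion, repopulation); points are libraries and lines are group medians. In WT, every depletion and repopulation library lies below every naive library for all 10 genes, while Stab1 keeps the largest share of its naive level.

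The question of whether the KO mice responded differently was tested as the difference of the depletion responses, KO minus WT. None of the 10 markers passed (edgeR), none had an unadjusted p under 0.05, and DESeq2 also called 0, where edgeR called 0.0192% of all genes in each direction. The differences ran from -0.23 (Stab1) to 1.21 (Lyve1) on the log2 scale, and the width of their intervals (2 SE either side) varied by gene. The interval was -0.95 to 0.49 for Stab1, -0.75 to 1.33 for Mrc1, -1.19 to 1.65 for Cd163 and -0.53 to 2.95 for Lyve1.

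After repopulation, too, the markers stood far below their naive levels. In WT mice 10 of 10 were lower than in naive mice, against 2.75% of all genes, and 0 higher, against 4.95%, with log2 fold changes of -4.6 (Mgl2) to -1.33 (Stab1) and a median of -3.54, an 11.6-fold fall. In Het mice 10 of 10 were lower, against 5.97% of all genes, and 0 higher, against 7.28%, with a median of -3.47. In KO mice 10 of 10 were lower, against 3.24%, and 0 higher, against 5.41%, with a median of -3.07. There Folr2 missed in the fit over all 64 libraries (adjusted p = 0.0933). Mean levels after repopulation were 3.64% to 35.7% of the naive mean in WT, 5.26% to 54.1% in Het and 7.52% to 47.7% in KO mice, and Stab1 kept the most in each. For all 10 genes every repopulation library lay below every naive one in WT (10.7% of all genes), in Het (15.9%) and in KO mice (8.11%).

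Mrc1 stood at 41.4, 26.1, 23.3 and 15.3 CPM in WT repopulation libraries, a 16.6-fold fall from naive (log2 -4.05 ± 0.38, adjusted p = 6.4e-09). It stood at 38.7, 28.0, 30.2 and 22.3 CPM in Het (14.2-fold, adjusted p = 1.24e-08) and at 20.4, 23.2, 17.3 and 49.6 CPM in KO libraries (7.99-fold, adjusted p = 6.16e-07). The ranges of the 3 genotypes overlapped, and all were far under the lowest naive library of their own genotype. F13a1, the factor XIII subunit, fell 15.8-fold in WT, 11-fold in Het and 8.81-fold in KO mice. Cd163 stood at 7.24, 3.68, 0.992 and 1.98 CPM in WT repopulation libraries, a 20.1-fold fall (log2 -4.33 ± 0.53, adjusted p = 5.56e-07), and at 1.27 to 7.09 CPM in KO libraries, an 11.4-fold fall. Ms4a7 fell 11.8-fold in WT, 7.98-fold in Het and 6.68-fold in KO mice.

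After Stab1, Folr2 kept the largest share of its naive mean in each genotype, with 16.2% in WT, 19.3% in Het and 30.3% in KO mice; Cbr2 came next in WT (10.2%) and KO (19.9%), and Ms4a7 in Het (11.6%). Folr2 stood at 16.7, 49.9, 22.5, 16.4 and 20.1 CPM in naive WT libraries and at 6.79, 3.4, 4.63 and 1.46 CPM after repopulation, a 5.5-fold fall (adjusted p = 2.66e-05). In KO mice its fall was 2.97-fold (log2 -1.57 ± 0.37, adjusted p = 0.00501). Cbr2 fell 8.76-fold in WT, 9.65-fold in Het and 4.54-fold in KO mice. Stab1 stood at 860, 685, 537 and 424 CPM in WT, at 913, 904, 945 and 597 CPM in Het and at 354, 373, 637 and 585 CPM in KO repopulation libraries. It fell 2.52-fold (adjusted p = 0.000175), 1.72-fold (adjusted p = 0.0269) and 1.89-fold (adjusted p = 0.00913). The Het call for Stab1 was lost without naive Het 1 (adjusted p = 0.0812), without Het repopulation 4 (0.104) or with naive Het 5 added (0.106), and the KO call without KO repopulation 1 (0.052).

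The repopulation responses of KO and WT mice, compared as a difference, gave 0 calls among the 10 (edgeR and DESeq2), and 1 gene, Mrc1, with an unadjusted p under 0.05 (log2 difference 1.05 ± 0.47, adjusted p = 0.478). edgeR called 0.0511% of all genes higher and 0.179% lower in this comparison. The differences ran from 0.08 (Lyve1) to 1.05, with intervals of 2 SE reaching from -1.4 to 2.47 over the 10 genes. Leaving out single libraries moved Lyve1 between -0.57 and 0.63 and Pf4 between -0.19 and 0.5, the lowest value of each coming without KO repopulation 4.

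**Figure D2:**
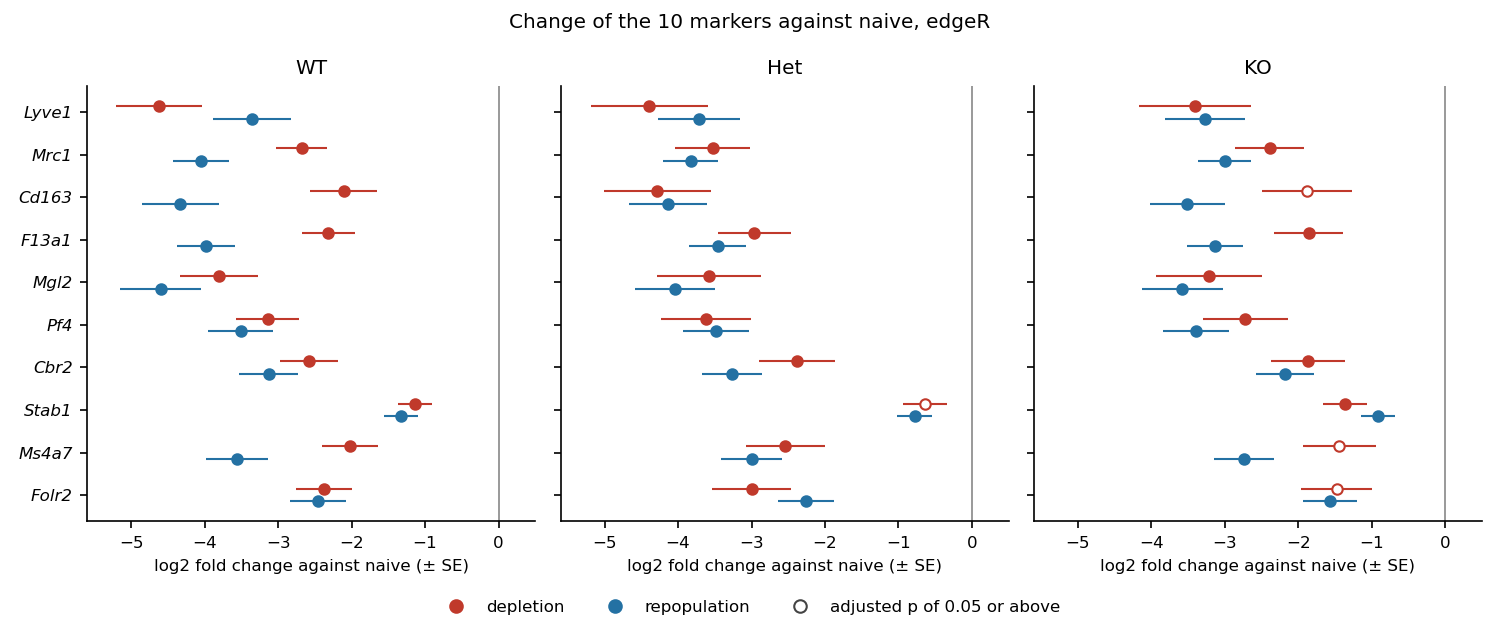
Log2 fold change against naive (edgeR, bars ± SE) of the 10 markers in WT, Het and KO mice at depletion (red) and repopulation (blue); open points have an adjusted p of 0.05 or above. All points lie below 0, Lyve1 is lowest at depletion, and Stab1 lies nearest to 0 in each genotype.

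Set against depletion directly, none of the 10 genes rose after repopulation in any genotype (6.22%, 3.64% and 3.35% of all genes did in WT, Het and KO mice). In WT mice 4 of 10 fell further, against 3.74% of all genes: Cd163 (log2 -2.22 ± 0.51, adjusted p = 0.00441), F13a1 (-1.66 ± 0.38, adjusted p = 0.00379), Ms4a7 (-1.55 ± 0.42, adjusted p = 0.0148) and Mrc1 (-1.37 ± 0.35, adjusted p = 0.0114). Lyve1 had the opposite sign at 1.27 ± 0.59, with an adjusted p of 0.189; its 4 repopulation libraries held 6.2, 4.67, 0.992 and 0.687 CPM and overlapped the depletion libraries. The count of 4 became 2 without WT repopulation 4 and 1 in a fit over all 64 libraries. In Het mice 0 passed (edgeR and DESeq2), with 0 at an unadjusted p under 0.05 and 3.15% of all genes called lower. In KO mice 0 passed by edgeR, with 3 at an unadjusted p under 0.05, 1 called by DESeq2 and 2.02% of all genes called lower. Without KO repopulation 4, the highest KO library for Mrc1, 2 passed. Whether WT differs from Het or KO in this step was not tested.

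Counts set against Mrc1 show which markers kept their proportion to it and which did not. In naive libraries Lyve1 had 6.46 to 9.3 counts per 100 Mrc1 counts in WT, 6.92 to 9.55 in Het and 6.73 to 9.41 in KO mice, a narrow and shared range. At depletion this ratio was 0.942 to 4.16 in WT, 4.03 and 5.32 in Het and 2.77 and 4.57 in KO libraries, all below the naive range, on 6 to 30 Lyve1 counts a library. After repopulation it was 4.26 to 17.9 in WT, 5.51 to 14.6 in Het and 1.84 to 8.58 in KO libraries. Cd163 had 14.2 to 21.1 counts per 100 Mrc1 counts in naive WT libraries, 15.6 to 28.9 at depletion and 4.26 to 17.5 after repopulation. These WT ranges all overlapped. In Het libraries at depletion Cd163 had 11.1 and 13.9, both below every naive Het library. In KO libraries at depletion Cd163 had 18.2, inside the naive KO range, and 30.9, above it. Its range after repopulation was 10.7 to 21.7 in Het libraries, which overlaps the naive ones (median 21.1), and 7.37 to 15.1 in KO libraries, just below the naive 15.4 to 22.7. Folr2 had 4.36 to 5.81 counts per 100 Mrc1 counts in naive WT libraries, 4.88 to 8.03 at depletion, which overlaps, and 9.55 to 19.9 after repopulation, which does not. In Het it went from 4.43 to 6.07 up to 9.2 to 19.1, and in KO from 4.84 to 7.83 up to 12.3 to 26.5, again with no overlap. At depletion Folr2 already stood above the naive range in KO libraries, at 10.8 and 12.6. In Het libraries it stood just above that range, at 6.08 and 8.56. Stab1 moved further still, from 254 to 457 counts per 100 Mrc1 counts in naive WT to 592 to 1572 at depletion and 2078 to 2774 after repopulation. At depletion it was 1501 and 3766 in Het and 815 and 927 in KO libraries, above the naive 293 to 420 and 312 to 616. These ratios were chosen after the levels were seen and are given as a description.

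Of 24 other genes of border macrophages, no members of the set, many fell as well. Like the members, they were chosen with earlier results of these data known. In WT mice 16 of 24 fell at depletion, against 3.79% of all genes, and 0 rose, against 3.72% (median log2 -1.57). At repopulation 18 of 24 fell, against 2.75%, and 0 rose, against 4.95% (median -1.84). Their summed level fell less, from 2754 to 3494 CPM in naive WT to 1847 to 2202 at depletion and 1937 to 2076 at repopulation. Het mice had 17 and 18 of 24 lower at the 2 stages, against 6.42% and 5.97% of all genes. They had 0 higher at either stage, against 8.25% and 7.28%. KO mice had 11 and 16 lower, against 2.63% and 3.24%, and 1 higher at each, against 2.99% and 5.41%. Ms4a4a, a relative of Ms4a7, fell 13.6-fold at WT repopulation (adjusted p = 5.9e-07), and Dab2, an endocytic adaptor, fell 6.94-fold (adjusted p = 1.54e-06). Cd38, an NAD glycohydrolase, fell 11.9-fold (adjusted p = 1.79e-06), and Clec12a, an inhibitory lectin receptor, fell 11.2-fold at WT depletion (adjusted p = 7.09e-06). Tgfbi, an extracellular matrix protein gene, fell 3.09-fold at WT depletion (adjusted p = 3.32e-09) and 2.08-fold at repopulation (adjusted p = 7.49e-07).

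Microglial genes moved less and in both directions. Of 14, 5 fell and 1 rose at WT depletion (median log2 -0.22), among them P2ry12, a purinergic receptor of resting microglia, by 1.66-fold (adjusted p = 1.45e-06). At WT repopulation 4 rose and 0 fell (median 0.03), with Olfml3 up 1.35-fold (adjusted p = 9.45e-05). The summed level of the 14 was 58366 to 65421 CPM in naive WT, 55343 to 56028 at depletion and 57235 to 64066 at repopulation. In Het mice it was 61236 to 65135 CPM in naive, 55286 to 60432 at depletion and 55359 to 60693 at repopulation libraries. In KO mice it was 50730 to 61125 CPM in naive, 42225 to 42965 at depletion and 48229 to 52050 at repopulation libraries. The summed level of all 10 border macrophage markers was 2131 to 3750 CPM in naive WT, 626 to 1104 at depletion and 454 to 947 at repopulation. Stab1 makes up most of that sum. Without Stab1 it was 650.0 to 1571 CPM in naive WT, 95.2 to 208 at depletion and 29.6 to 87.4 at repopulation.

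Class II antigen presentation genes, which border macrophages and dendritic cells share, fell with the markers. At WT depletion 6 of 7 fell (median log2 -2.94), H2-Eb1 by 16.3-fold (adjusted p = 3.32e-09) and Cd74, the invariant chain, by 4.92-fold (adjusted p = 9.48e-07). At WT repopulation 5 of 7 fell, with H2-Aa down 19.6-fold (adjusted p = 1.01e-09), and 1 rose. Among 10 monocyte genes 4 fell at WT depletion, led by Ccr2, the receptor that brings monocytes into tissue (7.44-fold, adjusted p = 3.51e-06), and at repopulation Ccr2 was lower by 6.22-fold and Ms4a4c higher by 3.02-fold. Of 8 dendritic cell genes 3 fell at WT depletion, among them Cd209a (7.77-fold, adjusted p = 0.00518).

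Genes of further cell types and of the dissociation response moved with the result in part. Of 8 endothelial genes 0 passed at WT depletion (median log2 -1.25), 1 fell at WT repopulation (Pecam1, 2.95-fold, adjusted p = 6.77e-05), and 7 fell in Het and 3 in KO mice at repopulation. Their summed level was 402 to 630 CPM in naive WT, 130.0 to 381 at depletion and 138 to 236 at repopulation. In none of these WT groups was a marker of the list at 0 in all libraries. Of 8 fibroblast and mural genes 0 passed at either stage in WT, with sums of 63.4 to 306, 54.9 to 127 and 54.6 to 95.6 CPM. The part of these cells in the fall of the markers was not tested. Of 10 dissociation response genes 0 passed at either stage in any genotype, with sums of 1534 to 4290 CPM in naive WT and 1954 to 5971 CPM in treated WT libraries. Lymphocyte sums were 30.3 to 54.7, 35.0 to 46.5 and 35.1 to 43.2 CPM, and of 10 genes tested 0 fell and 1, the chemokine gene Ccl5, rose at repopulation (2.53-fold, adjusted p = 0.00743). Neutrophil sums were 325 to 377, 387 to 543 and 368 to 411 CPM, with Mmp8 and Ly6g at 0 throughout WT depletion. In naive middle-depth KO libraries that sum was 416 to 510 CPM with 6 of the 11 genes at 0. The sum by itself is therefore no measure of neutrophils.

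**Figure D3:**
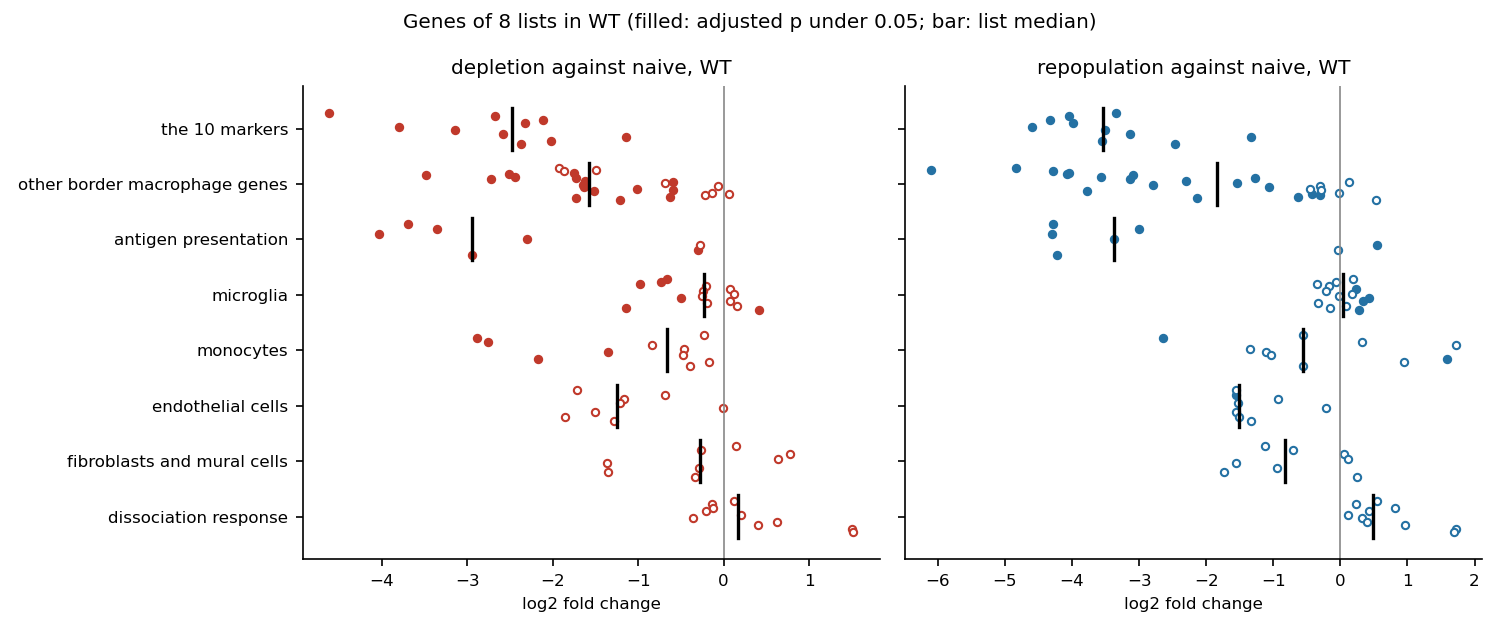
Log2 fold change against naive in WT mice for each gene of 8 lists, at depletion (left) and repopulation (right); filled points have an adjusted p under 0.05 and bars are list medians. The 10 markers have medians of -2.47 and -3.54 and the microglial genes of -0.22 and 0.03, with the endothelial genes between them at -1.25 and -1.51.

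Libraries of one group also differed from each other in these genes, and the 10 varied together. Taken as deviations from the 9 group means of log2 CPM over the 34 libraries, the 45 pairs of markers had Pearson r from 0.23 (Lyve1 with Stab1) to 0.91 (Mrc1 with F13a1), with a median of 0.58. Each marker had an r with the mean of the other 9 of 0.57 (Mgl2) to 0.94 (Mrc1). Among the 14 naive libraries alone the median pair had r = 0.85, among the 8 depletion libraries 0.58 and among the 12 repopulation libraries 0.55, where counts are far lower. These values are descriptions: genes of a library share its depth and its cells.

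Of 12737 genes compared, those outside the set that followed it most closely were Tmem8 (r = 0.82), Col23a1 (0.76), Dab2 (0.75), Cd209f (0.73), Fstl1 (0.71), Cd209a (0.71), Ifi203 (0.69) and Ms4a4a (0.69). Dab2, Cd209f and Ms4a4a belong to the list of other border macrophage genes, whose 23 compared members had a median r of 0.59. The median r was 0.53 for antigen presentation genes and 0.51 for endothelial genes, against -0.05 for microglial genes, -0.04 for dissociation genes and -0.02 for all genes. Within groups, endothelial genes thus varied in part with the border macrophage markers from library to library.

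**Figure D4:**
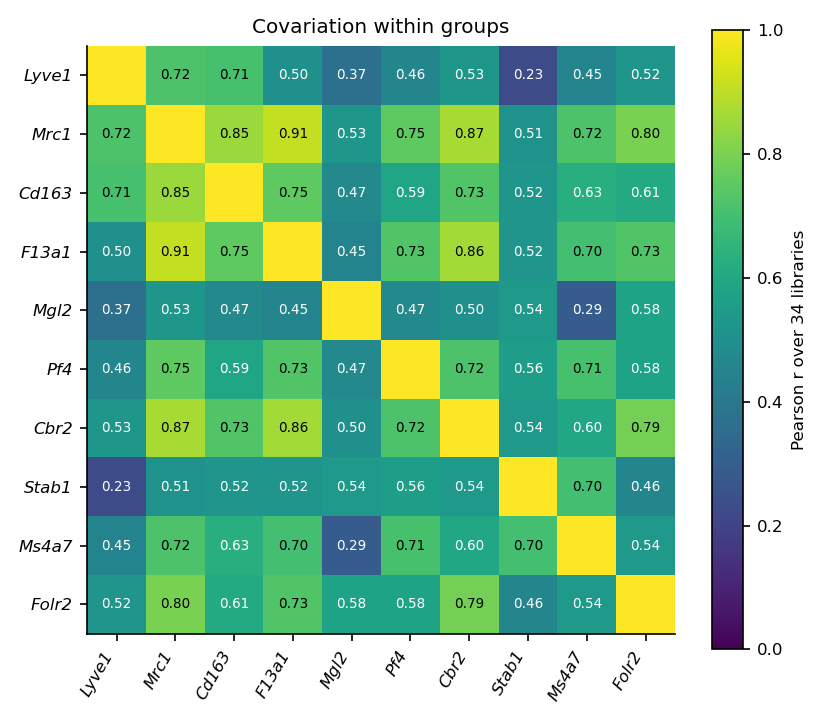
Pearson r between each pair of markers, from deviations of log2 CPM from the group means over 34 libraries; colour and number give r. Mrc1, F13a1 and Cbr2 have pairwise values of 0.86 to 0.91, and Stab1, Mgl2 and Lyve1 have lower values with most others.

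Naive KO libraries held less of the markers than naive WT libraries, but few single genes passed. All 10 log2 fold changes were below 0, from -1.4 to -0.73 with a median of -0.88, and 8 had an unadjusted p under 0.05. By edgeR 2 passed, against 2.59% of all genes called lower and 2.57% called higher: Mgl2 (-1.4 ± 0.42, adjusted p = 0.0488) and Stab1 (-0.77 ± 0.21, adjusted p = 0.0299). Mgl2 stood at 21.1, 62.2, 28.8, 27.0 and 26.6 CPM in WT and at 22.1, 11, 11.2, 6.85 and 10.9 CPM in KO libraries, with KO 1 inside the WT range. Stab1 stood at 1282, 1089, 961, 672 and 1099 CPM in KO libraries, all below the lowest WT library at 1481 CPM. DESeq2 called 6 of the 10. The edgeR count was 6 without KO 1, 1 without WT 4, WT 5 or KO 2, and 0 without WT 2, WT 3, KO 3 or KO 4, so that it rests on single libraries. In the same comparison 5 of 7 antigen presentation genes fell (median -1.58), as did 1 of 8 endothelial genes (median -1.08), and 2 of 14 microglial genes (median -0.19). The summed endothelial level was 121 to 540 CPM in KO against 402 to 630 CPM in WT, and its part in the difference was not tested.

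Between KO and WT mice at repopulation 0 of the 10 passed by edgeR (0 by DESeq2, and 1 at an unadjusted p under 0.05, Pf4 at -1.01 ± 0.46), where 6.26% of all genes were called lower and 6.68% higher. Intervals of 2 SE reached from -1.93 to 1.1. At depletion 1 of 10 passed, against 2.61% of all genes called lower and 3.17% higher: Stab1, with 460 and 286 CPM in KO and 531, 964, 866 and 647 CPM in WT libraries (-1.0 ± 0.3, adjusted p = 0.0496). That call was lost without WT 2, WT 3 or either KO library, and in the fits without the filter on low counts, of only the groups compared, or over all 64 libraries.

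In the other 30 libraries Stab1 separated KO from Het mice under cuprizone. It stood at 714, 979, 838 and 438 CPM in Het and at 287 to 413 CPM in the 6 KO libraries, with a median of 362 CPM. The groups did not overlap, and Stab1 was lower in KO by 1.91-fold (log2 -0.93 ± 0.2, adjusted p = 0.00307). It was the 1 marker of 10 that passed, against 5.17% of all genes called lower and 4.0% higher, and it passed in every fit that left out 1 Het library. In naive middle-depth libraries Stab1 had a median of 655 CPM in 7 Het libraries, the lowest at 487, and stood at 302 to 649 CPM in 6 KO libraries (-0.54 ± 0.18, adjusted p = 0.0587), and 0 of 10 passed by edgeR, with 1 at an unadjusted p under 0.05 and 1 by DESeq2, where 4.29% of all genes were called lower and 3.58% higher. KO 7, at 649 CPM, was the KO library inside the Het range. Genes of the dissociation response differed in the same direction: 8 of 10 were lower in KO under cuprizone, with sums of 1455 to 12044 CPM in KO and 20784 to 38184 CPM in Het libraries, and 9 of 10 in the naive middle-depth libraries. The part of that response in the Stab1 difference was not tested. By the protocol, naive KO and naive Het libraries ran on different instruments. In the naive middle-depth comparison genotype and instrument therefore cannot be told apart.

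Cuprizone against naive gave 0 calls among the 10 in Het and in KO mice (edgeR and DESeq2), with 0 at an unadjusted p under 0.05 in either, against 1.81% and 1.01% of all genes called lower and 2.7% and 0.75% higher. All cuprizone libraries are shallow and no naive library is, so the diet and the depth batch cannot be told apart. The cuprizone libraries varied widely: Mrc1 stood at 135, 220, 47.8 and 82.3 CPM in Het and at 221, 77.4, 151, 234, 31.4 and 20.2 CPM in KO libraries. KO cuprizone 5 and 6 were the lowest KO libraries for every marker except Stab1, and Pf4 had 1 count in each of them. Intervals of 2 SE reached from -2.3 to 1.51 in Het and from -1.61 to 1.46 in KO mice.

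Old Het mice, compared with the 2 deep adult Het libraries, gave 0 calls among the 10 (edgeR and DESeq2), with 2 at an unadjusted p under 0.05 and 1.79% of all genes called higher and 1.16% lower. Ms4a7 had a log2 fold change of 2.02 ± 0.9 (adjusted p = 0.313), with 16.3, 12.6 and 53.4 CPM in old and 5.65 and 12.9 CPM in adult libraries, which overlap. Stab1 stood at 266, 533 and 270.0 CPM in old and at 707 and 780.0 CPM in adult libraries (-0.71 ± 0.28, adjusted p = 0.232).

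**Figure D5:**
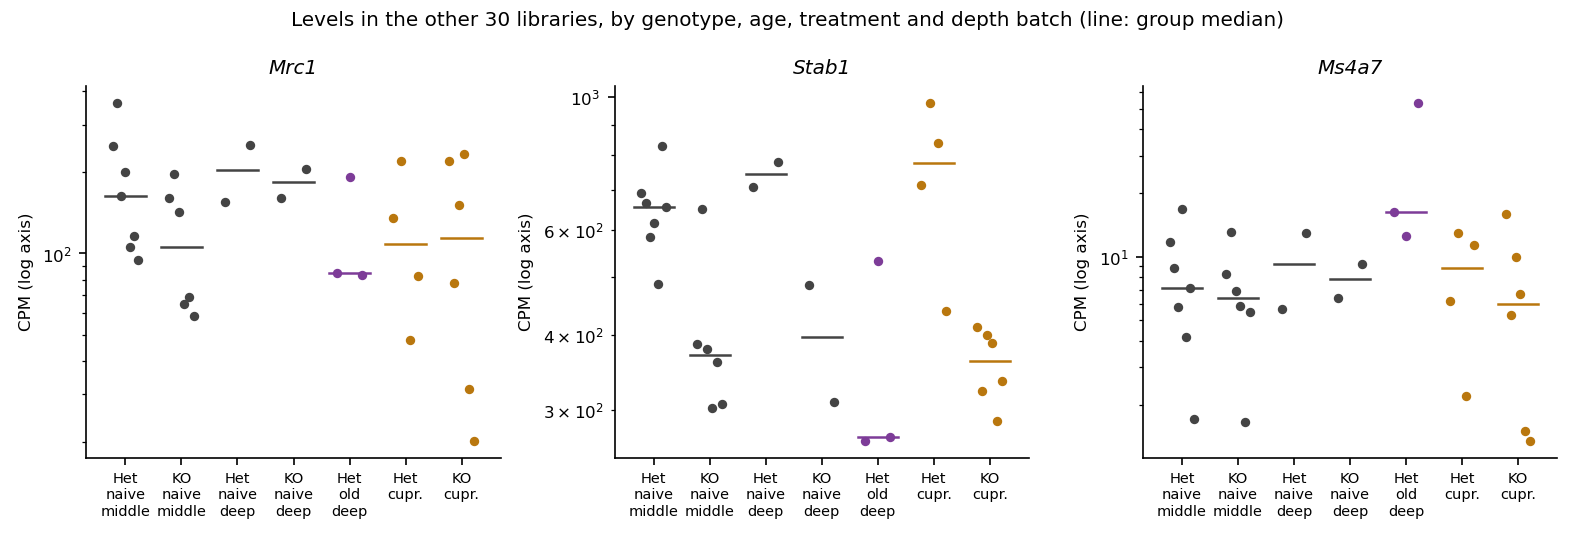
CPM (log axis) of Mrc1, Stab1 and Ms4a7 in each of the other 30 libraries, by genotype, age, treatment and depth batch; points are libraries and lines are medians. Under cuprizone, Stab1 lies between 438 and 979 CPM in the Het libraries and between 287 and 413 CPM in the KO libraries, while the Mrc1 ranges of Het and KO overlap.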

How the data were processed

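RNA from sorted mouse brain cells was sequenced from 64 libraries (SMARTer stranded total RNA kit, per the labels' protocols). The authors deposited 1 table of whole-number read counts per gene. Per the submitters' processing notes the tools include bcl2fastq 2.20, Trim Galore 0.6.7, STAR 2.6.1d and Salmon 1.5.2, with build GRCm38; which of them made the counts is not given in the sources used here.

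Counts were scaled to CPM by library total for display. Tests were run with edgeR 4.0.16 in R 4.3.3 (quasi-likelihood, TMM scaling, filterByExpr, two-sided, Benjamini-Hochberg adjustment over all genes tested, threshold 0.05), with 1 mean per group in 34 libraries (15664 genes) or per group and depth batch in the other 30 (16009 genes). The scripts were tested on simulated data. No 2 libraries were identical. DESeq2 1.42.0, other scalings, filters, sample sets, a sex covariate, a replicate block and leaving out single libraries were alternatives. The 10 members and the gene lists were chosen with earlier results of these data known. Besides the members, the rule for naming genes took up to 4 called genes of smallest p per list and comparison, and the 8 genes most like the members. Promoter sequences came from a RefSeq table. Totals of 2.7 to 24 M counts limit the precision of low genes; counts of 3 or fewer occurred for members only in cuprizone libraries.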

Additional observations from a re-analysis of the deposited data

Results flagged for a closer look

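Within groups of 4 to 10 libraries, 11 of 110 combinations of marker and group held 1 library set apart from the rest by Dixon's criterion, which chance meets in about 1 of 20. The markers of a library vary together, so the combinations are not independent and no excess over that rate can be read. Naive WT 2 was high for 6 markers: Mrc1 at 858 CPM (the others 354 to 435), Mgl2 at 62.2 CPM (21.1 to 28.8), Pf4 at 58.4 CPM (22.9 to 27.4), Cbr2 at 76.5 CPM (26.4 to 35.5), Ms4a7 at 43.9 CPM (16.8 to 24.3) and Folr2 at 49.9 CPM (16.4 to 22.5). Without it 10 of 10 markers still fell at WT depletion and at WT repopulation. Naive KO 1 was high for Mgl2, at 22.1 CPM against 6.85 to 11.2 CPM. Naive KO 7, a middle-depth library, was high for Lyve1, at 16.8 CPM against 3.91 to 7.01 CPM, and for Stab1, at 649 CPM against 302 to 387 CPM. Het repopulation 3 was high for Pf4, at 3.57 CPM against 1.81 to 1.95 CPM. Het repopulation 4 was low for Stab1, at 597 CPM against 904 to 945 CPM.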

How the results depend on the processing

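In the 6 comparisons with naive mice all 920 values of a member under a setting lay below 0, and 845 passed the threshold. Leaving out 1 library gave 10 lower markers throughout at WT depletion and WT repopulation, 7 to 10 at Het depletion, and 9 to 10 at Het and at KO repopulation. KO depletion moved from 7 lower markers to 4 over all 64 libraries, to 0 with only the groups compared, and to between 0 and 10 without single libraries, while DESeq2 gave 10. Repopulation against depletion in WT moved from 4 to 1 over all 64 libraries and to between 2 and 4 without single libraries. In KO it moved from 0 to 1 with DESeq2 and to between 0 and 2 without single libraries. KO against WT in naive mice moved from 2 to 6 with DESeq2, to 1 without the filter on low counts, to 1 over all 64 libraries, to 1 with only the groups compared, and to between 0 and 6 without single libraries. At depletion it moved from 1 to 0 without the filter, to 0 over all 64 libraries, to 0 with only the groups compared, and to between 0 and 1 without single libraries. KO against Het in naive middle-depth libraries moved from 0 to 1 with DESeq2 and to 1 without the filter. The cause of these moves was not tested, and the counts over all genes moved too (KO depletion: 412 lower, 123 over all 64 libraries, 13 with only the groups compared, 629 with DESeq2). No value that passed turned its direction, while values that did not pass could: without single libraries the KO minus WT depletion response ran from -1.1 to 1.3 for Mgl2 and from -1.2 to 1.14 for Pf4, and KO against WT at repopulation from -0.38 to 0.35 for Mrc1. Libraries of the same number did not deviate together (28 pairs, r from -0.2 to 0.18, 2 above 0.1), and with the replicate number as a block 10 markers were lower at WT depletion, 9 at Het depletion and 7 at KO depletion, as without it. No paired analysis was possible because the groups share fewer than 2 replicate numbers for cuprizone against naive and for old against adult. A member's lowest count in a depletion or repopulation library was 4, for Lyve1. For markers with such low counts, small differences among treated libraries could not be seen at this depth.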
